A study of Rattus norvegicus with 6 samples.

Results

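The collagen and laminin chains are the subunits of the main structural proteins of the extracellular matrix. They were taken as every gene on the array whose single symbol in the platform annotation was that of a collagen α chain or of a laminin α, β or γ chain. This rule gave 32 genes, 25 collagen and 7 laminin chains, of 14324 genes with a symbol of their own. They were measured by 34 probe sets, groups of probes for 1 transcript, and for Col6a4, which had 3, the probe set with the highest mean signal was used. RNA came from whole ovaries of 0-day-old female Sprague-Dawley rat pups after 24 h of organ culture on floating filters. In the CTGF group the ovaries received 500 ng/ml of human recombinant connective tissue growth factor, a secreted matrix-associated protein of the CCN family, and the control ovaries received no growth factor. Each group had 3 samples. A sample pooled 2 to 3 ovaries from different pups of 1 litter, and each of 3 culture batches, numbered 1 to 3, held 1 CTGF and 1 control sample. Oocytes, pregranulosa cells, stroma and the other cells of the ovary were thus measured together, and in such bulk RNA fewer cells of a type and less RNA per cell cannot be told apart.

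Collagens are trimers of α chains wound into a triple helix. Collagens I, III and V form the fibrils of the interstitial matrix, and collagen IV forms the sheet-like network of basement membranes together with laminins, which are trimers of an α, a β and a γ chain. In the newborn rat ovary a basement membrane encloses the nests of oocytes, and as nests break up and primordial follicles assemble, each new follicle becomes surrounded by a basement membrane of its own with stroma between the follicles.

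Promoters of 26 of the 32 chains were in the RefSeq table of the GRCr8 assembly, as windows of 300 bases around the annotated start of the gene, and those of Col12a1, Col14a1, Col1a1, Col2a1, Col3a1 and Lamb2 were not used here. Windows are shown for 5 chains, the fibrillar chains Col1a2, Col5a1 and Col5a2, which had one pattern across the culture batches, the basement membrane chain Col4a1, and the laminin chain Lama1, which lay above control in every batch. They are at chr4:33518307-33518606 (plus strand) for Col1a2, chr3:31606630-31606929 (plus strand) for Col5a1, chr9:55090102-55090401 (minus strand) for Col5a2, chr16:84885347-84885646 (plus strand) for Col4a1 and chr9:115139298-115139597 (plus strand) for Lama1. Each is written 5′ to 3′ in the direction of the gene, and capitals mark the letters TATAAA of a TATA box, the box named CCAAT, and the GC-rich box with the letters GGGCGG, each read on either strand.
Col1a2: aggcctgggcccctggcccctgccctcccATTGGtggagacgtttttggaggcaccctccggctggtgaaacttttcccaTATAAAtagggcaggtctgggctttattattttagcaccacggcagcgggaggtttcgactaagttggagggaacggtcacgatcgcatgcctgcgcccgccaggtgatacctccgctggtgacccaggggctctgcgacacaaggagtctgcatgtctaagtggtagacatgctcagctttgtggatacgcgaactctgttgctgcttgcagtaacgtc
Col5a1: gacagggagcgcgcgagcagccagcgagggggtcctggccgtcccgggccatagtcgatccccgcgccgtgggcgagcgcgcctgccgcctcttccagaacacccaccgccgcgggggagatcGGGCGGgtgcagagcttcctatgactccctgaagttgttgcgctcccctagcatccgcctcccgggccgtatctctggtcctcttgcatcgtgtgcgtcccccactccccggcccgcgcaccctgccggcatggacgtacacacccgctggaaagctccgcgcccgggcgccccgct
Col5a2: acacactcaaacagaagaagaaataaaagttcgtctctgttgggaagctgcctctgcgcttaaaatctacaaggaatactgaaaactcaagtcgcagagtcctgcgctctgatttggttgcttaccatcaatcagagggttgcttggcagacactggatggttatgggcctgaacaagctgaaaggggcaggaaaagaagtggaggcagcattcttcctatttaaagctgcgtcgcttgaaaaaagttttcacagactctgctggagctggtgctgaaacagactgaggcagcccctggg
Col4a1: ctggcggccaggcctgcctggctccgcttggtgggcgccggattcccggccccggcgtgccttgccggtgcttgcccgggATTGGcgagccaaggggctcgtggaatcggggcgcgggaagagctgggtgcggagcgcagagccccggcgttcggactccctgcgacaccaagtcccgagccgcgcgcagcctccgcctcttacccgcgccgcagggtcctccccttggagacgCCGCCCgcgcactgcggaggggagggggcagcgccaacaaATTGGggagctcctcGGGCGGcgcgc
Lama1: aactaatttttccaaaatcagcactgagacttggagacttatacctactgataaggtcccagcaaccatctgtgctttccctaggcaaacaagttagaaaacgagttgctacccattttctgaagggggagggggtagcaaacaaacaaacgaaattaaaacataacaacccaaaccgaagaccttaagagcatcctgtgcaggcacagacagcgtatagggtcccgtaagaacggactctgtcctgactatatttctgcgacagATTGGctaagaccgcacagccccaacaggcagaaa

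The Col1a2 window held TATAAA and CCAAT, 170 and 221 bases before the start, and that of Col5a1 held GGGCGG 127 bases before it. Col4a1 had CCAAT and GGGCGG at 2 places each, Lama1 had CCAAT alone, 15 bases after the start, and the Col5a2 window held none of these letters. Of the 26 chains, 4 (15.4%) had TATAAA, against 14.2% of the 33469 promoters of the table, and 9 (34.6%) had CCAAT, against 37.5%. GGGCGG was found in 14 (53.8%), against 33.1% of all promoters. The Col4a1 window shares 176 bases with that of Col4a2, which runs the opposite way from a start 77 bases away. Col4a3 and Col4a4 are also arranged head to head, with 88 bases shared and 413 bases between the starts. Col3a1 and Col5a2 are neighbours on chromosome 9. These matches are descriptions of the letters and not mapped binding sites.

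Signals are given here un-logged, from the log2 values that the authors deposited. Different probe sets bind with different strength, so the order of the chains is one of probe set brightness and not of transcript amount. The background was set by 48 probe sets of 46 genes specific to other organs, such as photoreceptor, lens and pancreas genes, with a median signal of 23.45. A chain is called above background where its mean signal passed the 95th percentile of these probe sets, 48.0, as 53.2% of all 27342 probe sets did. By this limit 16 of the 32 chains were above background, 12 collagen and 4 laminin chains. Just inside it was Col27a1, with a mean signal of 54.4, and just outside it was Col4a4, with 44.9.

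The brightest chains were those of the interstitial fibrils. Col3a1, the only chain of collagen III, had a mean signal of 1370 ± 119.2 with CTGF and 1476 ± 134.4 in control ovaries (SD, n = 3 each), followed by both chains of collagen I. Of the 10 fibril-forming chains 8 were above background, and Col5a3 and the cartilage chain Col2a1 were not. The fibril-associated Col14a1, Col12a1 and Col16a1, which bind to the surface of fibrils or to basement membranes, were above background, while the cartilage chains Col9a1 and Col9a2 were not. Among the laminins, Lamc1, Lama1, Lamb2 and Lama5 were above background. Col4a1 was the only one of 3 measured collagen IV chains above it. The chains of the epithelial anchoring complexes, Col7a1, Col17a1, Lama3 and Lamb3, had mean signals of 24.4 to 34.4. The transmembrane Col13a1 and Col23a1, the network-forming Col8a1 and Col10a1, and Col6a4 were at background as well. The classical chains Col6a1, Col6a2 and Col6a3, and Col4a2, Lamb1, Lama2, Lama4, Col15a1 and Col18a1, had no probe set with a symbol of their own and were not analysed here.

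**Figure D1:**
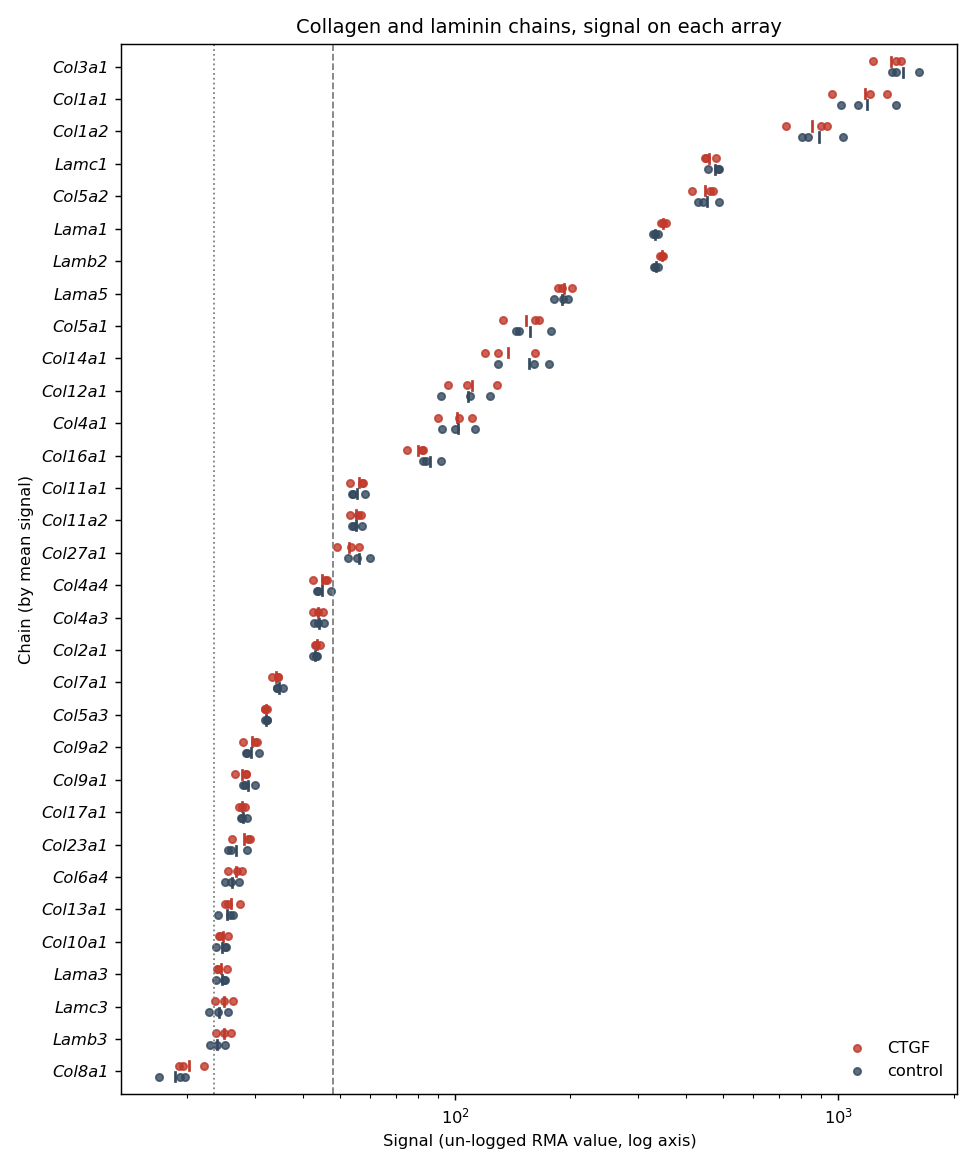
Signal of the 32 chains on each of the 6 arrays (log axis), ordered by mean signal, with CTGF arrays in red above control arrays in blue and a short bar at each group mean. The dotted and dashed lines mark the median (23.45) and the 95th percentile (48.0) of the genes of other organs, and 16 chains lie above the dashed line. Group points overlap for all chains except Lama1 and Lamb2, whose differences were positive in all 3 batches, as for 9.41% of all probe sets.

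The effect of CTGF on the chains was measured as the log2 difference of CTGF minus control with the culture batch as a block, as the culture date was treated in the methods. The differences were small. Their median over the 32 chains was -0.005, against -0.003 over all probe sets, and they ran from -0.18 for Col14a1 to 0.12 for Col8a1, with 14 chains above 0, 17 below 0 and Col11a2 at 0. After Benjamini-Hochberg adjustment in limma over all probe sets, 0 chains passed 0.05, as did 0% of all probe sets, and the smallest adjusted p was 0.994. At an unadjusted p under 0.05, 0 chains were called in limma, against 3.35% of all probe sets. The methods' 2-way test, with treatment and culture batch and without moderation of the spread, called 0 chains at an unadjusted p under 0.05, against 4.2% of the probe sets it could test, and 0 chains and 0% of these probe sets after adjustment. The criteria of the study are an unadjusted p under 0.05, a difference of signals over 10 and a ratio over 1.2 or under 0.83. With the p of limma, 0 chains and 0.435% of all probe sets met them. CTGF lay above control in all 3 batches for 2 chains, Lama1 and Lamb2, against 9.41% of all probe sets, and below control in all 3 for 0 chains, against 10.9%.

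These tests leave room for changes of moderate size. The 95% intervals of limma included 0 for all 32 chains. They lay within a 1.2-fold change in either direction for 21 chains, but for only 7 of the 16 above background, and the widest reached -0.57 for Col14a1 at the low end and 0.41 for Col12a1 at the high end. Standard errors were 0.062 to 0.172 on the log2 scale. With 3 pairs, an exact two-sided sign-flip permutation test cannot go below p = 0.25, and the number of arrays limits the precision. In the deposited values the mean of each pair of arrays was equal across batches to within 0.005 (log2). The SDs of the groups therefore leave out the spread between batches, and both follow from the same 3 differences.

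**Figure D2:**
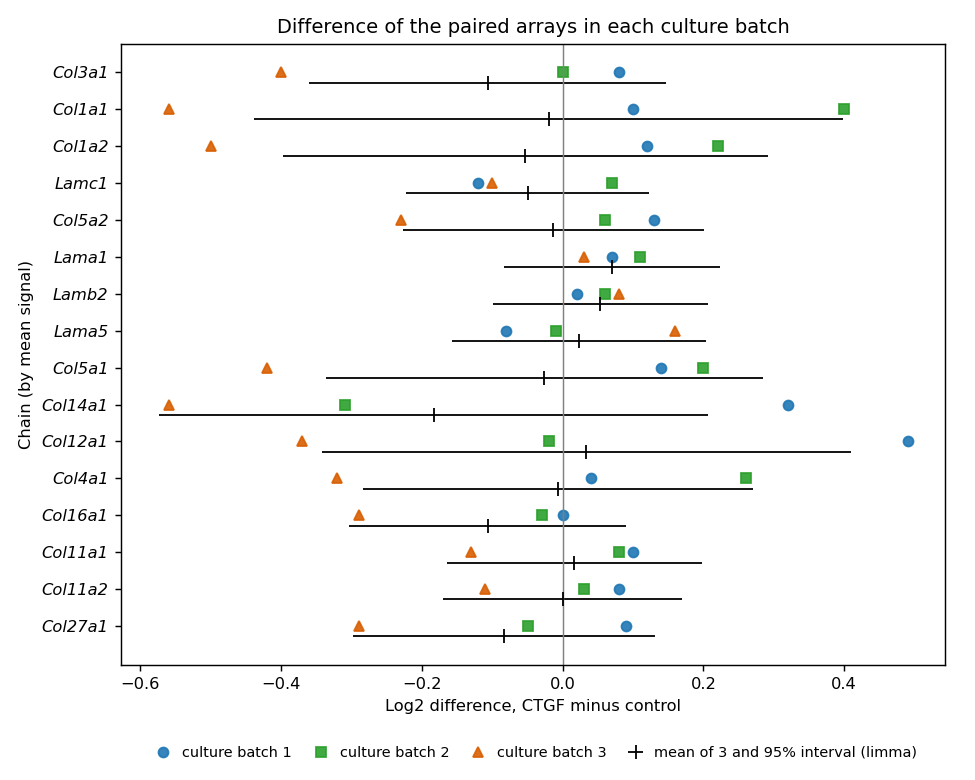
Log2 difference, CTGF minus control, of the 16 chains above background, with 1 symbol for each culture batch and, below, the mean of 3 with its 95% interval in limma. Every collagen chain lies left of 0 in batch 3, while Lama1 and Lamb2 lie right of 0 in all 3 batches and every interval includes 0.

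Among the fibril-forming chains, Col3a1 had signals of 1458, 1418 and 1235 in CTGF batches 1 to 3, against 1380, 1418 and 1629 in the control batches. The lowest value was the CTGF array of batch 3 and the highest its control partner, and the groups overlapped. With pair means equal across batches, the batch with the largest difference holds both extremes, here and for the chains below. The 2 extremes are thus 1 observation. The log2 difference was -0.11 ± 0.105 (SE), with an interval of -0.36 to 0.15. Col1a1, the more frequent chain of the collagen I molecule, had 1209, 1342 and 962.1 with CTGF, against 1128, 1017 and 1418 in control ovaries. Here too the extremes were the CTGF and control arrays of batch 3, and the CTGF array was the higher one in batches 1 and 2. The mean difference was -0.02 ± 0.172 (SE), the largest standard error of all chains. Col1a2, the other chain of collagen I, had 903.9, 935.8 and 729.1 with CTGF, against 831.7, 803.4 and 1031 in control ovaries, and a difference of -0.05 ± 0.142 (SE). Both collagen I chains thus had the same order of arrays within each batch.

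Collagen V, which is built into collagen I fibrils and sets their diameter, gave the same picture at lower signals. Col5a2 had 471.1, 461.4 and 415.9 with CTGF, against 430.5, 442.6 and 487.8 in control ovaries, a log2 difference of -0.01 ± 0.088 (SE). Col5a1 had 162.0, 165.4 and 133.4 with CTGF, against 147.0, 144.0 and 178.5 in control ovaries, a difference of -0.03 ± 0.128 (SE). For both, the CTGF array was higher in batches 1 and 2 and lower in batch 3, so that the groups overlapped. Col5a3 had a mean signal of 32.1, below the limit, and log2 differences of -0.01, -0.01 and 0.01 in batches 1 to 3. Of the minor fibril-forming chains, Col11a1 had a log2 difference of 0.02 and Col27a1 one of -0.08, at mean signals of 55.6 and 54.4.

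For the 3 fibril-associated chains above background CTGF was the lower array in batches 2 and 3. Col14a1, a chain that forms homotrimers on the surface of collagen I fibrils, had 162.0, 129.8 and 119.4 with CTGF, against 129.8, 160.9 and 176.1 in control ovaries. CTGF was the higher array in batch 1 alone, and the difference, the lowest of all chains, was -0.18 ± 0.161 (SE). Its interval, -0.57 to 0.21, included 0. Col12a1, a related chain of dense connective tissue, had 128.9, 107.6 and 95.7 with CTGF, against 91.8, 109.1 and 123.6 in control ovaries. The order was opposite in batches 1 and 3, the arrays of batch 2 were close, and the mean difference was 0.03 ± 0.155 (SE). Col16a1 had 82.7, 82.1 and 75.1 with CTGF, against 82.7, 83.9 and 91.8 in control ovaries. Its batch 1 arrays were equal and its CTGF arrays were the lower ones in batches 2 and 3. The difference of -0.11 ± 0.081 (SE) had the smallest unadjusted p of the chains in limma, 0.235 (adjusted p = 0.994).

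In the basement membrane group, Col4a1, which with Col4a2 forms the collagen IV of nearly all basement membranes, had signals of 102.5, 110.7 and 90.5 with CTGF, against 99.7, 92.4 and 113.0 in control ovaries. As for Col1a1, Col1a2, Col5a1 and Col5a2, CTGF was higher in batches 1 and 2 and lower in batch 3, and the difference was -0.01 ± 0.114 (SE). Col4a3 and Col4a4, chains of the collagen IV of the kidney glomerulus, had mean signals of 44.0 and 44.9, below the limit. Their log2 differences were -0.01 each, and in batch 3 CTGF was the lower array for both, by -0.10 and -0.16.

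In no batch did all 4 laminin chains above background share 1 order of arrays, though Lama1 and Lamb2 had the same order in every batch. Lama1, the α chain of the laminin of early embryonic basement membranes, had 349.7, 354.6 and 344.9 with CTGF, against 333.1, 328.6 and 337.8 in control ovaries. Lamb2, a β chain typical of the kidney glomerulus and the neuromuscular junction, had 342.5, 347.3 and 349.7 with CTGF, against 337.8, 333.1 and 330.8 in control ovaries. In both chains CTGF was above control in all 3 batches, so with the equal pair means every CTGF array was above every control array. This non-overlap is thus no further evidence, and 9.41% of all probe sets lay above control in all 3 batches. The folds were 1.05 for Lama1 and 1.038 for Lamb2. The log2 differences were 0.07 ± 0.064 (SE) and 0.05 ± 0.063 (SE), and the intervals, -0.08 to 0.22 for Lama1 and -0.10 to 0.21 for Lamb2, included 0 (adjusted p = 0.994 for both in limma). Their 3 differences varied little, with SDs of 0.040 and 0.031, and the test draws its error also from the other probe sets.

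Lamc1, the γ chain of most laminins, had 448.8, 481.0 and 451.9 with CTGF, against 487.8, 458.3 and 484.4 in control ovaries. CTGF was the lower array in batches 1 and 3 and the higher one in batch 2, and the log2 difference was -0.05 ± 0.071 (SE). Lama5, the main α chain of mature epithelial basement membranes, had 186.1, 190.0 and 202.3 with CTGF, against 196.7, 191.3 and 181.0 in control ovaries. Here the batch 3 CTGF array was the highest and its control the lowest, opposite to Col3a1 and both collagen I chains, and the difference was 0.02 ± 0.074 (SE). Lama3 and Lamb3, chains of the laminin that anchors epithelia, and Lamc3 had mean signals of 24.4 to 24.5, near the median of the genes of other organs, and log2 differences of -0.01, 0.05 and 0.05. Col6a4, of the collagen VI family of beaded filaments, had 0.04 at a mean signal of 26.4, and its 2 dimmer probe sets had 0.11 and -0.01.

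Within batches 1 and 3 the brighter collagen chains lay nearly all on one side of control. Of the 12 collagen chains above background, CTGF was the higher array for 11 in batch 1 (Col16a1 was equal), for 7 in batch 2 and for 0 in batch 3, where it was the lower array for 12 of 12. The medians of the 12 log2 differences were 0.10, 0.045 and -0.345 in batches 1, 2 and 3. Over all probe sets the medians were 0, -0.01 and 0, with CTGF higher for 48.1% in batch 1 and 45.8% in batch 2 and lower for 47.4% in batch 3. Over the probe sets above background the medians were 0.01, 0 and -0.01. Among these CTGF was higher for 51.3% in batch 1 and 49.9% in batch 2 and lower for 51.2% in batch 3. Each batch compares 1 array with 1 array, so these differences have no replicate check, and the chains of a batch share the same pair of RNA pools. The 4 laminin chains above background had medians of -0.03, 0.065 and 0.055. Their differences had no common sign in any batch. The SD of the 3 differences had a median of 0.275 over the 12 collagen chains, 0.072 over the 4 laminin chains and 0.121 over all probe sets. Such a spread was not limited to collagen chains. In the lists of cell markers described below, the median SD was 0.401 for stroma and 0.275 for pregranulosa cells. It was 0.148 to 0.22 for the other marker lists. For Col1a1, Col14a1 and Col12a1 this SD was larger than for 98% or more of all probe sets, at percentiles of 99.0, 98.6 and 98.3. Among the probe sets above background their percentiles were 98.7, 98.2 and 97.8. With quantile normalization or centred array medians, the counts for the 12 collagen chains became 12 in batch 1 and 8 in batch 2 and stayed 12 of 12 lower in batch 3.

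Markers of ovarian stroma had the same signs in batches 1 and 3. All 6 of 6 listed stroma markers (Pdgfra, Nr2f2, Tcf21, Dcn, Lum and Pdgfrb) were above background. CTGF was the higher array for 6 of them in batch 1 and 4 in batch 2 and the lower array for 6 in batch 3, with medians of 0.165, 0.04 and -0.49. Their summed signal was 3201, 3070 and 2539 with CTGF in batches 1 to 3, against 2824, 2949 and 3597 in control ovaries. In batch 3 the log2 difference of the fibroblast proteoglycan Lum was -1.08 and that of Pdgfra, a receptor of stromal cells, -1.03. The stroma sum was thus lowest on the CTGF array and highest on the control array of batch 3. Oocytes and the pregranulosa cells that come to surround them make up the nests. The summed signal of the 6 of 9 oocyte markers measured was 4563 to 5040 with CTGF and 4337 to 4808 in control ovaries, with medians of 0.08, -0.06 and 0.21 in batches 1 to 3. The 6 of 7 pregranulosa markers summed to 2535 to 2771 with CTGF and 2424 to 2663 in control ovaries, with medians of -0.09, 0.21 and -0.095. The CTGF array of batch 3 was the lowest and its control the highest for the endothelial and smooth muscle sums too, as for stroma. With equal pair means, both extremes of such a sum come from the batch 3 difference and are 1 observation. The 4 of 6 endothelial markers summed to 336.8 to 371.6 with CTGF and 365.6 to 407.3 in control ovaries. For the 4 of 5 smooth muscle markers the sums were 269.2 to 306.3 with CTGF and 291.0 to 332.6 in control ovaries. Surface epithelium covers the ovary, and leukocytes reside in its stroma. The 5 of 6 surface epithelium markers summed to 3461 to 3604 with CTGF and 3489 to 3641 in control ovaries. Krt19, with a mean signal of 2788, made up most of this sum. The 6 of 6 leukocyte markers summed to 1160 to 1197 with CTGF and 1166 to 1204 in control ovaries. Most of this sum came from Cd14, with a mean signal of 861.1. Medians in batches 1 to 3 were 0.12, 0.14 and -0.18 for surface epithelium, with the signs of the collagen medians. They were 0.055, -0.065 and -0.025 for leukocytes, -0.02, 0.01 and -0.235 for endothelium, and 0.055, -0.01 and -0.1 for smooth muscle. The part of the cell makeup of the pools in the differences of the collagen chains was not tested.

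**Figure D3:**
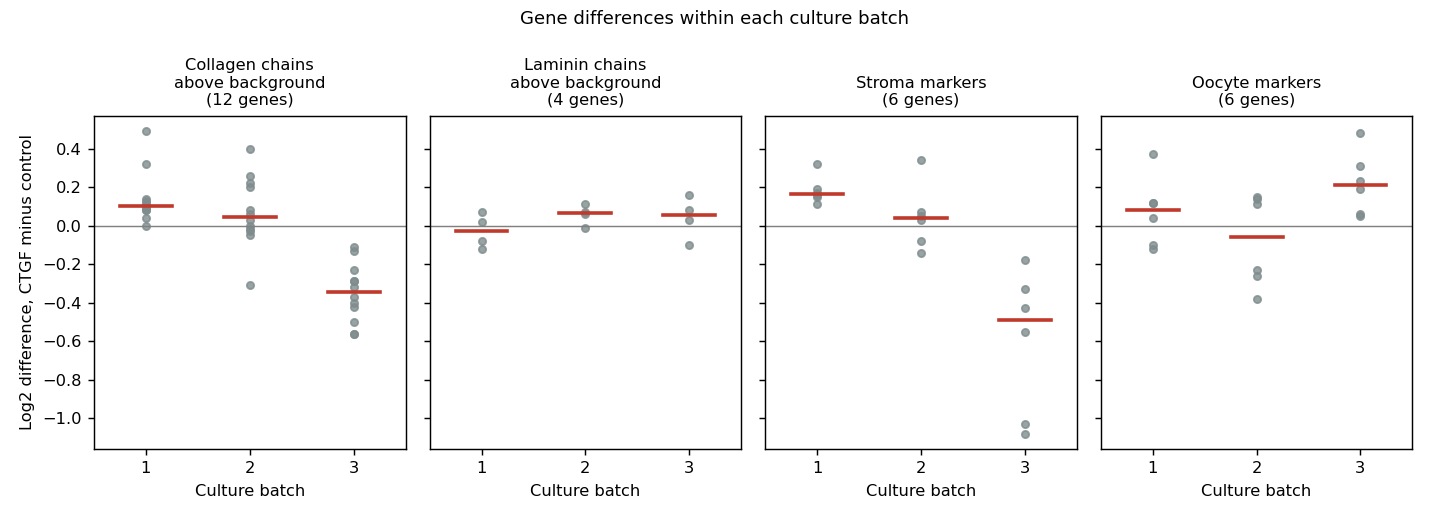
Log2 difference, CTGF minus control, within each culture batch for the 12 collagen and 4 laminin chains above background and for 6 stroma and 6 oocyte markers, with 1 point for each gene and a red bar at the median. In batch 3 the collagen chains (median -0.345) and the stroma markers (median -0.49) lie below 0, and the oocyte markers (median 0.21) lie above it.

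Genes that make, process or accompany the chains were listed by role. Of 19 genes of collagen folding and modification, 18 were measured, 14 with a log2 difference above 0 and 4 below, with a median of 0.035 and 0 at an unadjusted p under 0.05 in limma. Ppib, the cyclophilin of the prolyl 3-hydroxylase complex, had a signal of 1801 ± 89.0 with CTGF and 2045 ± 104.0 in control ovaries (SD, n = 3 each), a log2 difference of -0.18 ± 0.078 (SE) with CTGF the lower array in 3 of 3 batches. P3h4, which acts with lysyl hydroxylase in collagen modification, had 72.9 ± 2.78 with CTGF and 66.4 ± 2.54 in control ovaries (SD, n = 3 each), a difference of 0.13 ± 0.072 (SE). Of 15 genes of procollagen cleavage and cross-linking, 13 were measured, 7 above 0 and 5 below, with a median of 0.01 and 0 called. Adamts3, a procollagen N-proteinase, had 59.9 ± 3.79 with CTGF and 52.4 ± 3.09 in control ovaries (SD, n = 3 each), a difference of 0.19 ± 0.085 (SE) with CTGF the higher array in 3 of 3 batches. With the mean of all its probe sets this difference was smaller, 0.12 (unadjusted p = 0.161 in limma). Tll1, a protease related to the procollagen C-proteinase, had a difference of 0.12 ± 0.064 (SE) at signals below the limit. Of 15 other basement membrane components, 10 were measured, 5 above 0 and 5 below, with a median of 0.005 and 0 called. Medians in batches 1 to 3 were 0.095, 0.125 and -0.045 for folding and modification and 0.12, 0.11 and -0.03 for cleavage and cross-linking. For the other basement membrane components they were 0.04, 0.06 and -0.145. All 3 lists thus had medians with the signs of those of the collagen chains above background. Ppib, P3h4, Adamts3 and Tll1 were named because they had the smallest p of the 41 genes in limma. Each lay on 1 side of control in all 3 batches. Of all probe sets, 9.41% lay above control in all 3 batches and 10.9% below it. The adjusted p of these 4 genes in limma was 0.994. In limma 0 of the 41 genes passed an unadjusted 0.05, against 3.35% of all probe sets. Over the 3 lists the methods' 2-way test called 2 of 41 genes at an unadjusted p under 0.05, against 4.2% of the probe sets it could test, and 0 after adjustment. The count of 0 in limma depended on the setting, since Ppib passed an unadjusted 0.05 with trend and robust options and Adamts3 with either other scaling.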

How the data were processed

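Transcripts were measured on Affymetrix gene arrays in 3 CTGF and 3 control samples. The authors summarized probes to log2 values with RMA in Partek, with an adjustment for GC content, and the deposited log2 values cover 27342 probe sets. Differences between culture batches had been removed before deposit, since pair means were equal to within 0.005. Which step did this is not given in the sources used here.

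The pairing comes from the labels, which name the organ culture batch. Over probe sets, the deviations of the arrays of 1 pair had correlations of -0.9988, -0.9988 and -0.9991, which follow from the equal pair means. Differences were fitted with limma 3.58.1 under R 4.3.3, using lmFit and plain eBayes on unfiltered values with a term for the culture batch (2 residual and 4.22 prior degrees of freedom). Benjamini-Hochberg adjustment took in every probe set. The procedure was tested on simulated data. The labels call the pools biological replicates but do not say whether batches differed in litter, so p-values apply to these pools only. With the batch term they rest on the spread of the 3 differences within batches, moderated by the other probe sets. The spread between batches is not in them. Array medians were 5.82 to 5.84.

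The annotation gave 1 symbol to 15097 probe sets, several to 323 and none to 11922. By Entrez number 15067 matched a RefSeq gene, and current symbols selected the same 32 chains. A probe set shared by Lamc3 and another gene was not used. Named genes were the 10 brightest chains, chains called at an unadjusted p, the 5 highest and 5 lowest differences among chains above background, all chains of collagens I, III, IV, V, VI and XVIII and all laminin chains, and the 4 partner genes with the smallest p. Other names in the text, such as Itgb4, were picked with their values in view. The members and lists were chosen with earlier results of these data known. Alternatives were no replicate block, the methods' 2-way test, quantile normalization, centred array medians, a filter on low signals, trend and robust options, the mean of all probe sets of a gene, current symbols, and each replicate left out.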

Additional observations from a re-analysis of the deposited data

How the results depend on the processing

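At an adjusted p under 0.05 the count of chains stayed 0 under all 11 alternatives, and adjusted p of the 26 named genes ranged over 0.145 to 1. With no replicate block, 1 chain passed an unadjusted p under 0.05 (Lama1, unadjusted p = 0.0387 and adjusted p = 0.28 in limma), but this fit counts degrees of freedom that the removal of batch differences had used up. This fit also passed Ppib, Adamts3, P3h4 and Tll1 at an unadjusted p under 0.05. Ppib passed it with trend and robust options (unadjusted p = 0.021, adjusted p = 0.995 in limma), and Adamts3 with quantile normalization (unadjusted p = 0.049, adjusted p = 1 in limma) and centred medians (unadjusted p = 0.0456, adjusted p = 0.994 in limma). With the mean of all its probe sets Adamts3 did not pass it (0.1233, unadjusted p = 0.161 in limma). With 1 replicate left out the count of chains was 0 to 1, the 1 being Col14a1 without replicate 1 (-0.435, unadjusted p = 0.0254 in limma). The chains on one side of control in all 3 pairs stayed 2, or became 3 with the mean of all probe sets of a gene, which added Col6a4. Of the 26 named genes, 8 kept their direction under every alternative run (Lamc1, Lama1, Lamb2, Col16a1, Ppib, Adamts3, P3h4 and Tll1) and 18 turned under at least 1. The fit with no block, the 2-way test, the low-signal filter, trend and robust options and current symbols left the log2 differences unchanged. These settings could thus turn no gene. Lama1, Lamb2, Ppib, Adamts3, P3h4 and Tll1 had 1 sign in all 3 pairs, so leaving out 1 replicate could not turn them. Quantile normalization turned Col4a1 (0.0006), Col4a4 (0.0022), Col5a3 (0.0072) and Lama3 (0.0031), and centred array medians turned Col4a1 (0.0067), Col4a4 (0.0067), Col4a3 (0.0067), Col5a3 (0.01) and Lama3 (0.0067), all near 0. Leaving out 1 replicate gave log2 differences of -0.2 to 0.04 for Col3a1, -0.23 to 0.25 for Col1a1, -0.19 to 0.17 for Col1a2, -0.085 to 0.095 for Col5a2, -0.14 to 0.17 for Col5a1, -0.435 to 0.005 for Col14a1, -0.195 to 0.235 for Col12a1, -0.14 to 0.15 for Col4a1, -0.05 to 0.07 for Col4a4, -0.05 to 0.04 for Col4a3, -0.025 to 0.09 for Col11a1, -0.17 to 0.02 for Col27a1, -0.02 to 0.1 for Col6a4, -0.045 to 0.075 for Lama5, -0.06 to 0.025 for Lama3, -0.01 to 0.12 for Lamb3 and -0.035 to 0.13 for Lamc3. Without replicate 3, 13 of the 26 turned. For the 16 chains not above background the signal limits what can be measured, and the filter on low signals left them out.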

Other observations

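Of 16 listed receptors of collagens and laminins, 13 were measured, with log2 differences above 0 for 7 and below 0 for 6 and a median of 0.007. At an unadjusted p under 0.05 in limma 1 was called, against 3.35% of all probe sets, and 0 after adjustment. This was Itgb4, the β4 integrin subunit that binds laminin in hemidesmosomes, and it was chosen after its values were seen. Its signal was 57.7, 56.5 and 57.3 in CTGF batches 1 to 3, against 64.5, 65.8 and 64.9 in control ovaries. CTGF was below control in all 3 batches, as for 10.9% of all probe sets. With equal pair means, every CTGF array was then below every control array. The log2 difference was -0.19 ± 0.063 (SE, unadjusted p = 0.0241, adjusted p = 0.994 in limma).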
